A study of Mus musculus with 6 samples.

Results

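Sodium and calcium pump genes were followed in sorted parietal cells of the mouse stomach, the gastric cells that secrete acid. The 8 genes, chosen by symbol from the deposited table of 23284, are the sodium pump beta subunits Atp1b1 and Atp1b3, the pump partner Fxyd3, and the calcium pumps Atp2a2, Atp2a3, Atp2b1, Atp2b4 and Atp2c2. All 8 were in the table, and 7 reached the filter for testing. Control animals have the genotype label Transgenic-Tom, and the Cre allele behind their red fluorescence is not spelled out in the labels. Noggin animals, labelled Transgenic-Tom-nog, carried H+/K+-Cre, H+/K+-Nog and Rosa26-tdTom, and thus made noggin, which binds bone morphogenetic proteins outside the cell and blocks them, under a promoter of the proton pump that also drove Cre. Cells of both groups were purified by flow cytometry on the tdTomato signal. Each group had 3 libraries, labelled biological replicates. No source used here gives age, or tells single animals from pools, and p-values therefore measure library-to-library spread.

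P-type pumps move ions across membranes by passing through a phosphorylated state driven by ATP. The sodium pump, in the basolateral membrane of gastric epithelial cells, consists of a catalytic alpha subunit, a glycosylated beta subunit that it needs for folding and delivery to the surface, and often a small FXYD protein that tunes its kinetics. Calcium is removed from the cytosol by pumps of the endoplasmic reticulum (SERCA), the plasma membrane (PMCA) and the secretory pathway (SPCA). In parietal cells, calcium signals triggered by acetylcholine and gastrin act beside cyclic AMP in starting acid secretion.

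Values are FPKM as deposited by the authors, a level scaled by transcript length and by mapped fragments. The depth of each library is unknown, so that no counting interval can be given. The transgene separated the groups, with Nog at 0.871 to 1.97 FPKM in controls against 2281 to 2734 FPKM in noggin libraries. Proton pump transcripts, the defining markers of parietal cells, were at 5433 FPKM or more in every library, although Atp4a, the catalytic subunit, was lower in each noggin library (5433 to 7619 FPKM) than in each control (13385 to 16218 FPKM). Atp4b, the other subunit, was higher in each noggin library (21468 to 25184 FPKM) than in each control (16877 to 21416 FPKM). Noggin replicate 3 stood apart, with 542 tested genes listed at 0 against 19 to 34 in each of the others. Summed chief cell markers were also high in both groups, at 62824 to 116260 FPKM in controls against 133631 to 360936 FPKM in noggin libraries. Most of the sum was Pgc, which overlapped between groups, and Clps. Of the 8 markers, 7 of them tested, 2 were higher without overlap (Clps and Pnliprp2) and 0 lower. The shares of all tested genes were 20.3% and 18.0%. Chia and Bhlha15 had lower means in noggin libraries than in controls.

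Promoter windows are shown for the pair of sodium pump partners with the highest levels, Fxyd3 and Atp1b1, as genomic context for the transcripts measured. RefSeq (GRCm38.p6) held a window for 6 of the 8 genes. The 250 bases before the annotated start are printed 5′ to 3′ on the strand of the gene, and capitals mark matches to CCAAT or GGGCGG on either strand. The window of Atp1b1 lies at chr1:164458356-164458605 and that of Fxyd3 at chr7:31076698-31076947, both on the minus strand.
Atp1b1: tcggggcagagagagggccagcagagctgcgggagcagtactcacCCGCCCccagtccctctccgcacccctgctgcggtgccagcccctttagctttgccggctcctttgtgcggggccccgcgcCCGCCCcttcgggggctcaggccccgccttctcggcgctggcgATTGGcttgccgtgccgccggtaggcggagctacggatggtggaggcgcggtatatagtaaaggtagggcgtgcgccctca
Fxyd3: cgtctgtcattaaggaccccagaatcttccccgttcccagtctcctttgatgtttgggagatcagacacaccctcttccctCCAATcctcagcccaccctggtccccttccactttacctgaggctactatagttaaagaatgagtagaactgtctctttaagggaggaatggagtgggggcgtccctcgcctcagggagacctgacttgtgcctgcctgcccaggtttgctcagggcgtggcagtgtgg
The Atp1b1 window held 2 matches to GGGCGG, the GC box, and the Fxyd3 window 0, beside a match in 32.7% of the 32851 RefSeq windows. Each held 1 match to CCAAT, which 33.8% of windows hold. The letters TATAAA, present in 12.4% of windows, had 0 matches in both. So had the nuclear receptor motif AAGGTCA, present in 4.08%, and a GC-rich Smad site, GGCGCC, present in 9.59%. Both strands were searched, overlapping matches were counted separately, and the GC box and the Smad site can overlap. G and C made up 70.4% of the Atp1b1 window and 55.2% of the Fxyd3 window. The motifs were chosen after values and sequences were seen.

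One of the 7 tested genes passed the test between noggin and control libraries. Atp2a2, the SERCA pump of the endoplasmic reticulum found in most cells, fell, and the other 6 did not pass. Over all tested genes 2.44% were called, 0.695% lower and 1.75% higher. These were 74 lower and 186 higher genes, against 963 lower and 137 higher once every library was rescaled to the same total FPKM, which called 2 of the 7 lower (Atp2a2 and Atp1b1). The test was limma on log2(FPKM + 1) over the 10644 genes that reached 1 FPKM in 3 libraries or more, and calls are genes with a Benjamini-Hochberg adjusted p under 0.05. Low genes change by more than their fold on this scale shows. The log2 fold change was negative for 6 of the 7 genes and their median was -0.53, beside -0.03 over all tested genes. Libraries of the 2 groups did not overlap for 3 of the 7, Fxyd3 being higher and Atp2a2 and Atp2b1 lower in noggin libraries, beside 38.3% of all tested genes (20.3% higher and 18.0% lower). Of the 7, 2 had an unadjusted p under 0.05, as had 26.7% of all tested genes. In RNA of sorted cells in bulk, fewer cells of a type and less RNA per cell cannot be told apart.

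**Figure D1:**
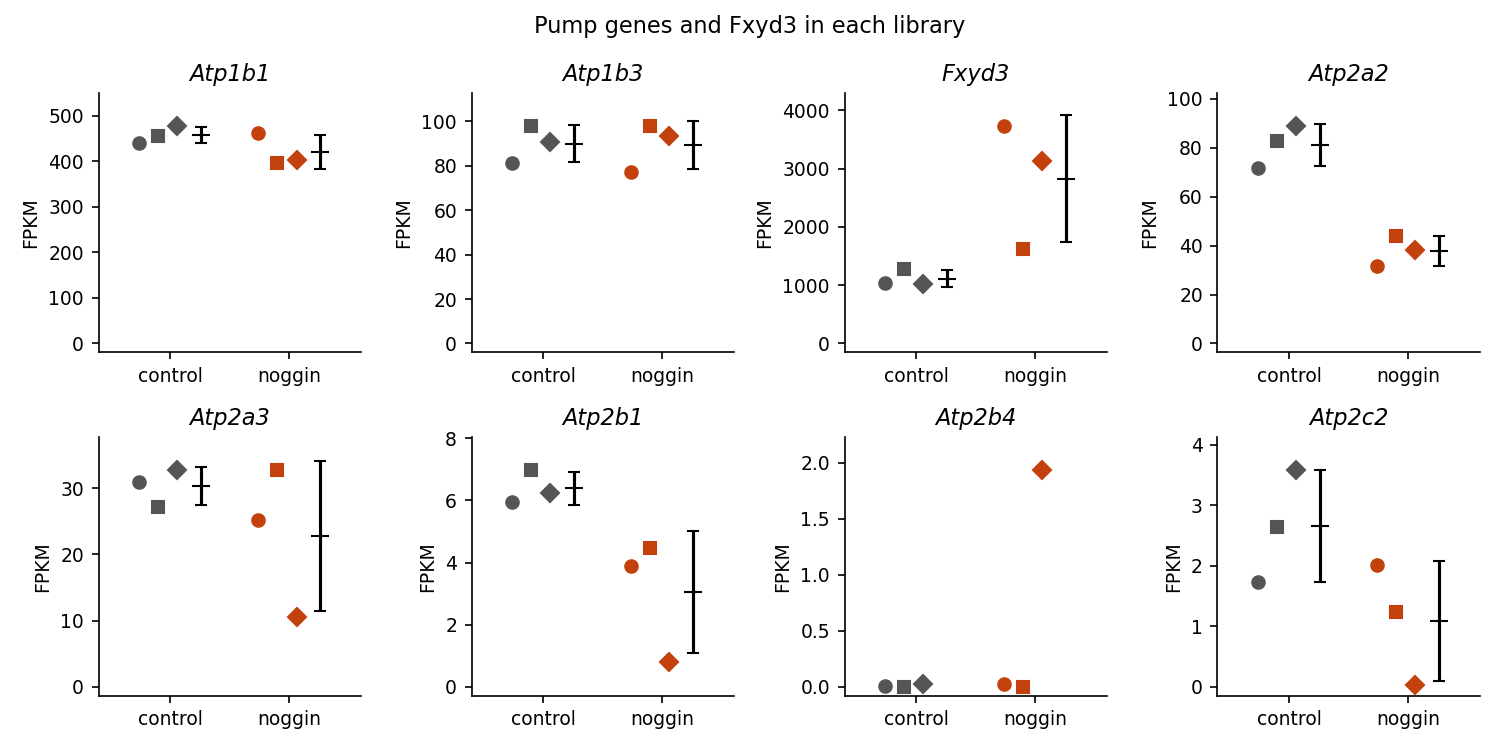
FPKM of the 8 genes in each library, with circles, squares and diamonds for replicates 1, 2 and 3 of the control (grey) and noggin (orange) groups, and bars for mean ± SD except for Atp2b4. Atp1b3 overlaps between groups almost fully and Atp1b1 through noggin replicate 1 only. Fxyd3 is higher and Atp2a2 lower in all 3 noggin libraries, and noggin replicate 3 is the lowest library for Atp2a3, Atp2b1 and Atp2c2.

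The levels of the 8 genes spanned from over 1000 to near 0 FPKM. In controls the order, by mean FPKM, was Fxyd3 (1115), Atp1b1 (457.7), Atp1b3 (90.0), Atp2a2 (81.1), Atp2a3 (30.3), Atp2b1 (6.39), and Atp2c2 (2.66), with Atp2b4 last at 0.0239 or less in each library. Among the 8, neighbours in this order had separate ranges over the control libraries, except Atp1b3 and Atp2a2, which overlapped. In noggin libraries the order of means of the first 7 was the same. There, however, Atp2a2 overlapped with Atp2a3, Atp2b1 with Atp2c2, and Atp2c2 with Atp2b4, while Atp1b3 and Atp2a2 no longer did.

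The sodium pump beta subunits had close levels in the 2 groups. Atp1b1 (chromosome 1, 164437109 to 164458355, minus strand, mm10) encodes the beta subunit usual in epithelia. It was at 441, 455 and 477 FPKM in control replicates 1, 2 and 3 and at 462, 395 and 402 FPKM in the noggin replicates. The groups overlapped through noggin replicate 1. The means were 458 ± 18.2 and 420 ± 36.5 FPKM (SD, n = 3 each). On the log2 scale the difference was -0.13, with a 95% interval of -0.54 to 0.28 (SE 0.177, limma adjusted p = 0.664). Rescaling every library to the same total FPKM, which moved the median of all tested genes to -0.61, gave -0.84, or -0.23 relative to that median (adjusted p = 0.0473, range over the 16 alternatives 0.0473 to 0.955). Quantile normalization gave -0.83 (adjusted p = 0.0474), -0.73 relative to its median of -0.10.

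Atp1b3 (chromosome 9, 96332655 to 96364442, minus strand), the other beta subunit measured, was at 81.4, 97.9 and 90.8 FPKM in controls against 77.1, 97.9 and 93.4 FPKM in noggin libraries. The groups overlapped almost fully. Its log2 fold change was -0.01, with an interval of -0.43 to 0.41 (SE 0.180, adjusted p = 0.971). Atp1b1 made up 83.6 ± 1.12% of the sum of both beta transcripts in controls and 82.3 ± 2.95% in noggin libraries (SD, n = 3 each). The sum itself was 548 ± 23.2 FPKM and 509 ± 25.7 FPKM.

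Fxyd3 (chromosome 7, 31068172 to 31076704, minus strand), also known as Mat-8, encodes a small membrane protein that associates with the sodium pump. It had the highest level of the 8 genes, at 1038, 1283 and 1024 FPKM in controls against 3731, 1620 and 3127 FPKM in noggin libraries. All 3 noggin libraries lay above all controls, and replicate 2 was the nearest to them. The means were 1115 ± 146 and 2826 ± 1087 FPKM, a ratio of 2.53. The difference of 1.26 on the log2 scale (SE 0.355, interval 0.44 to 2.09) did not pass the test (adjusted p = 0.0961). Without noggin replicate 2 it was 1.62 and passed (adjusted p = 0.0172), and over the 16 alternatives the adjusted p ranged from 0.0172 to 0.376. Rescaling gave 0.55, or 1.16 relative to the median of all tested genes, and quantile normalization 0.49.

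Markers of mucous neck cells were higher in the libraries where Fxyd3 was higher. The 6 mucous neck cell markers summed to 2456 to 3363 FPKM in controls, but to 25864, 10766 and 13026 FPKM in noggin replicates 1, 2 and 3. All 6, 5 of them tested, were higher in every noggin library than in every control, beside 20.3% of all tested genes. The 5 tested were all called higher, beside 1.75% of all tested genes, with limma adjusted p from 0.0295 to just under 0.05. Most of the sum was Tff2, at 19699, 6807 and 9247 FPKM in noggin replicates 1, 2 and 3. The order of the noggin libraries was not that of Fxyd3 for each marker. Muc6, Gkn3 and Aqp5 were lowest in replicate 3, and Cftr, at 0.594 to 1.05 FPKM in noggin libraries, was lowest in replicate 1. The 6 pit cell markers summed to 22255 to 26496 FPKM in controls, but to 49766, 23296 and 41362 FPKM in noggin libraries, with replicate 2 inside the control range. Of the 6 pit cell markers, 0 were called, 2 (Muc5ac and Dpcr1) were lower without overlap and 0 higher, beside 18.0% and 20.3% of all tested genes. None of the 12 was listed at 0 in all libraries. Their part in the level of Fxyd3 was not tested.

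Among the SERCA pumps, Atp2a2 fell and Atp2a3 did not pass the test. Atp2a2 (chromosome 5, 122453513 to 122502225, minus strand) was at 71.7, 82.7 and 88.8 FPKM in controls, and at 31.5, 44.0 and 38.0 FPKM in noggin libraries. The lowest control lay well above the highest noggin library. The means were 81.1 ± 8.65 and 37.8 ± 6.29 FPKM (SD, n = 3 each), and the noggin mean was 0.467 of the control mean. This was a log2 difference of -1.09, with an interval of -1.55 to -0.62 (SE 0.199, limma adjusted p = 0.0429), and it was lower in 3 of 3 libraries.

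Some markers of parietal cells were lower in noggin libraries together with Atp2a2. Of 14 such markers, 7 were lower in every noggin library than in every control and 1 (Atp4b) was higher, beside 18.0% and 20.3% of all tested genes. Gif, 1 of the 14, was also counted among the chief cell markers, and it overlapped between groups. Of the 14, 3 were called lower, beside 0.695% of all tested genes. They were the anion exchangers Slc4a2 (0.467 of the control mean) and Slc26a7 (0.345) and the nuclear receptor Esrrg (0.440). The calls of Esrrg (limma adjusted p = 0.0483) and Slc26a7 (just under 0.05) were close to the threshold. Atp4a, at 0.435 of the control mean, did not pass (limma adjusted p = 0.124). Neither did Atp4b, at 1.16 of the control mean (limma adjusted p = 0.814). The summed level of the 14 was 35279 to 42010 FPKM in controls, but 32069 to 34753 FPKM in noggin libraries, and 0 of them were at 0 in all libraries. Their part in the level of Atp2a2 was not tested.

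The call of Atp2a2 was close to the threshold. Its direction was the same in all 16 alternatives, at -1.78 to -0.65 with adjusted p from 0.0184 to 0.273, and 5 of the 16 kept the call. Leaving out control replicate 1, 2 or 3 gave -1.17, -1.07 and -1.02, with adjusted p of 0.161, 0.201 and 0.273. Without noggin replicate 1 it was -0.96 (adjusted p = 0.0591). Without noggin replicate 2 or 3 the call was kept, at -1.20 (adjusted p = 0.0192) and -1.10 (adjusted p = 0.0460).

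Atp2a3 (chromosome 11, 72961169 to 72993044, plus strand) encodes SERCA3, the SERCA pump known from epithelial, endocrine and blood cells. It was at 31.0, 27.1 and 32.8 FPKM in controls, and at 25.2, 32.8 and 10.5 FPKM in noggin libraries. The groups overlapped, and noggin replicate 3 was the lowest of all libraries. Its log2 fold change of -0.53 (SE 0.390, interval -1.44 to 0.38, adjusted p = 0.405) did not pass, and was -0.07 without noggin replicate 3. Together the 2 SERCA transcripts summed to 103, 110 and 122 FPKM in controls, but to 56.6, 76.8 and 48.4 FPKM in noggin libraries. Atp2a2 made up 69.8%, 75.3% and 73.0% of that sum in controls. Its share was lower in noggin replicates 1 and 2, at 55.6% and 57.3%, and higher in replicate 3, at 78.4%.

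Since Atp2a3 is also known from endocrine and blood cells, their markers were examined. The 17 leukocyte markers summed to 2.52 to 2.94 FPKM in controls, but to 27.2, 21.0 and 97.0 FPKM in noggin replicates 1, 2 and 3. Of these, 6 did not overlap and were higher, and 0 were at 0 in all libraries. Only 3 of the 17 were tested, so the 20.3% of all tested genes is not a like comparison. These 3 (Fcer1g, Tyrobp and Laptm5) reached the filter only through noggin libraries. Some of the 6 lay near 0, as Emr1, at most 0.0448 FPKM in controls and at least 0.0453 FPKM in noggin libraries. The 14 enteroendocrine markers summed to 457 to 2730 FPKM in controls, but to 1916, 28791 and 21336 FPKM in noggin libraries. Gast, the gastrin gene, carried most of the sum in noggin replicates 2 and 3, at 26026 and 14693 FPKM, and was at 22.3 FPKM in replicate 1. Ghrl (ghrelin) and Chga (chromogranin A) were called higher, at 1414 and 393 FPKM in noggin replicate 1 beside at most 171 and 142 FPKM in controls. Of the 14, 11 were tested and 0 were at 0 throughout. Among the 11 tested, 3 (Ghrl, Chga and Hdc) were higher without overlap, beside 20.3% of all tested genes. Only Ghrl and Chga were called, beside 1.75% of all tested genes called higher. Noggin replicate 3, with the lowest Atp2a3, had the highest leukocyte sum. The part of these cells in the level of Atp2a3 was not tested.

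Of the plasma membrane pumps, Atp2b1 was measured at a few FPKM and Atp2b4 near 0 in most libraries. Atp2b1 (chromosome 10, 98914406 to 99026143, plus strand), which encodes the PMCA pump found in most tissues, was at 5.96, 6.99 and 6.23 FPKM in controls, and at 3.88, 4.46 and 0.797 FPKM in noggin libraries. All 3 noggin values were below all controls. Its log2 difference was -1.02 (SE 0.461, interval -2.09 to 0.05) and did not pass the test (adjusted p = 0.201). Without noggin replicate 3 the value was -0.52 (adjusted p = 0.125, range over the 16 alternatives 0.0640 to 0.600).

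Atp2b4 (chromosome 1, 133699457 to 133801041, minus strand), a second PMCA pump, was not tested, as 1 library reached 1 FPKM. It was listed at 0.00684, 0.00260 and 0.0239 FPKM in controls, and at 0.0221, 0 and 1.94 FPKM in noggin replicates 1, 2 and 3. Every library but noggin replicate 3 was at 0.0239 FPKM or less. The same library had the highest summed leukocyte markers (97.0 FPKM) and the highest sum of 11 stromal, smooth muscle and endothelial markers, at 7.44 FPKM against 1.11 to 2.24 FPKM in the other 5 libraries. Of that sum 5.70 FPKM was Pecam1, an endothelial marker, while Col1a1, Col1a2 and Col3a1 were at most 0.0837 FPKM in any library and Cdh5 was at 0 in all. The part of such cells in the level of Atp2b4 was not tested.

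In the secretory pathway, the tested member was the lesser of the pair of SPCA genes. Atp2c2 (chromosome 8, 119700009 to 119757717, plus strand) encodes SPCA2, a calcium and manganese pump of secretory epithelia. It was at 1.74, 2.65 and 3.59 FPKM in controls, and at 2.01, 1.23 and 0.0293 FPKM in noggin libraries. The groups overlapped, and noggin replicate 3 was near 0. The difference was -0.91 on the log2 scale (SE 0.455, interval -1.97 to 0.15, adjusted p = 0.237), and -0.47 without that library.

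Atp2c1 (chromosome 9, 105403539 to 105527319, minus strand), the Golgi pump SPCA1 and not among the 8, supplied 94.5% to 96.9% of the SPCA sum in controls. It was at 54.1, 63.1 and 61.9 FPKM in controls and fell to 14.1, 30.1 and 13.8 FPKM in noggin libraries. The lowest control was above the highest noggin library. Its log2 difference of -1.67 passed the test (SE 0.312, adjusted p = 0.0444). It kept its sign in all 16 alternatives, at -2.34 to -1.30, and its call in 6, with adjusted p from 0.0132 to 0.231. Among others, the call was lost without control replicate 1, 2 or 3 (-1.74, -1.63 and -1.64), without noggin replicate 1 (-1.50) or replicate 3 (-1.48), and with the length correction described further on (-1.30, adjusted p = 0.0592).

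**Figure D2:**
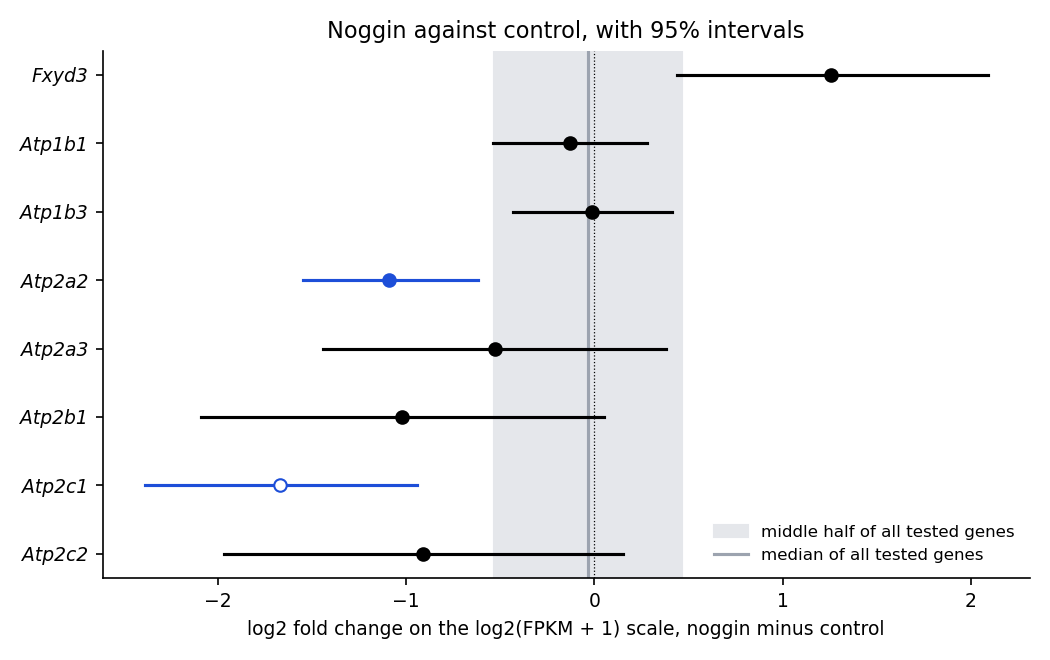
Log2 fold change on the log2(FPKM + 1) scale, noggin minus control, with 95% limma intervals, for the 7 tested genes (filled) and for Atp2c1 (open), in blue where the adjusted p was under 0.05. The grey band runs from -0.53 to 0.46, the quartiles of all tested genes, and Atp2a2 and Atp2c1 lie below it with their whole interval.

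Ratios within a library, which do not depend on the total a library is scaled to unless a pseudocount is added, were compared for 4 pairs of pump genes. With 3 libraries against 3 the two-sided exact permutation test cannot go below p = 0.1, so none could pass. Groups did not overlap for 1 of the 4 pairs. This was Atp2b1 to Atp2b4, computed with 1 FPKM added because Atp2b4 was listed at 0 in 1 library. Its log2 ratio was 2.79 to 2.99 in controls and 2.25, 2.45 and -0.71 in noggin libraries, a difference of -1.54 (exact permutation p = 0.1, adjusted p = 0.4 over the 4 pairs). With Atp2b4 near 0 its size depends on the pseudocount, at -2.75 with 0.1 and -3.55 with 0.01. Without noggin replicate 3 the difference was -0.52. The ratio of Atp2a2 to Atp2a3 was 1.21, 1.61 and 1.44 in controls and 0.32, 0.43 and 1.86 in noggin libraries. Noggin replicates 1 and 2 were below and replicate 3 above every control, and the difference of -0.55 had an exact permutation p = 0.4 (adjusted p = 0.8), or was -1.04 without noggin replicate 3.

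The remaining 2 pairs also overlapped between groups. The log2 ratio of Atp1b1 to Atp1b3 was 2.35 ± 0.117 in controls and 2.23 ± 0.305 in noggin libraries (SD, n = 3 each, exact permutation p = 0.6, adjusted p = 0.8). For Atp2c2 to Atp2c1 the ratio was -4.96, -4.57 and -4.11 in controls and -2.80, -4.61 and -8.88 in noggin libraries (exact permutation p = 0.8, adjusted p = 0.8). The difference of -0.89, computed with no pseudocount, was -0.74 with 0.01 FPKM added and -0.17 with 0.1 FPKM. It turned to 0.84 without noggin replicate 3. Quantile normalization gave 1.02, the length correction 0.66 and the shortest transcript as length 0.94. These settings start from log2(FPKM + 1), so in them the added 1 FPKM and the normalization or correction cannot be told apart.

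**Figure D3:**
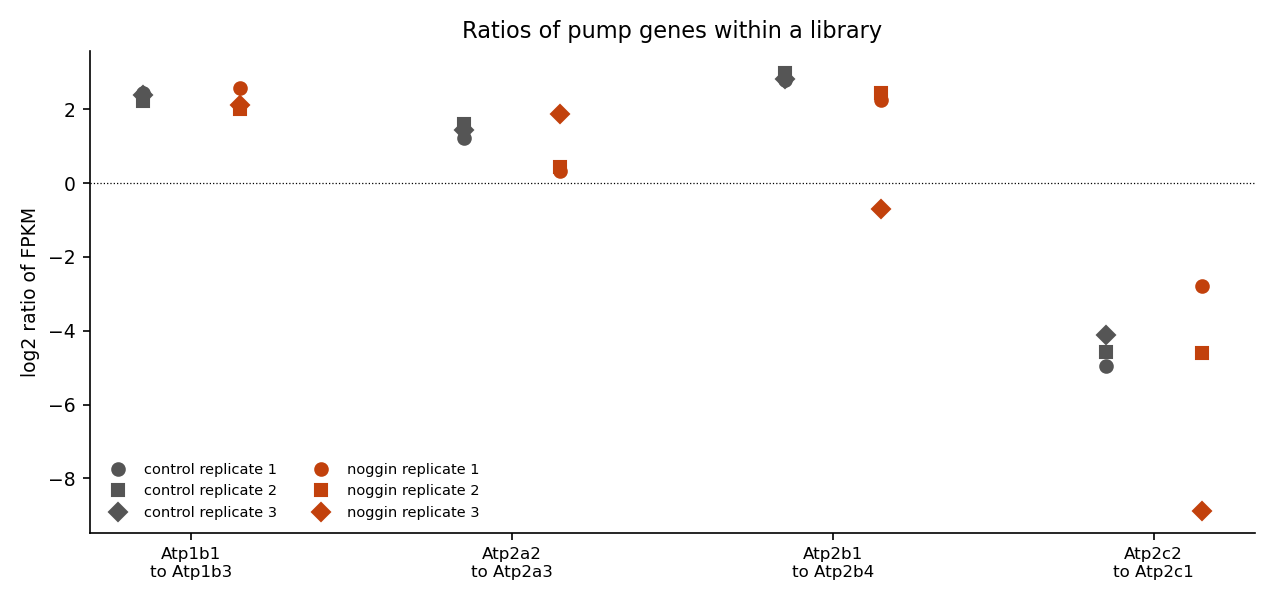
Log2 ratio of the FPKM of 2 genes within each library for 4 pairs, in grey for control and orange for noggin replicates 1 (circle), 2 (square) and 3 (diamond). Control ratios lie close together for each pair, and noggin ratios spread most for Atp2c2 to Atp2c1, from -8.88 to -2.80.

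Fold changes were related to transcript length in these libraries, and the members differ in length. Across 10542 tested genes with an annotated length, which are not independent replicates, Spearman's correlation of the log2 fold change with the median transcript length was -0.554. Class medians were 0.35 for transcripts of 1000 to 2000 bases, -0.52 for 4000 to 5000 bases and -0.56 for 5000 bases or more. Atp2a2, with a median of 4235 bases, was at -1.09, below the lower quartile of its length class (-0.88). Atp2a3, with 4540 bases, was at -0.53, next to the median of the same class. Atp2b1, with 7130 bases, was at -1.02, below the lower quartile of -0.92 for the longest class. Atp2c2, with 3222 bases, was at -0.91 beside a lower quartile of -0.71 for 3000 to 4000 bases.

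Fxyd3 has 2 transcripts in the annotation's basic set, the shorter of 439 bases, and a median of 1666.5 bases. Its value of 1.26 was above the upper quartile for 1000 to 2000 bases (0.69) and for 200 to 1000 bases (1.08). Atp1b3 (1994 bases) was at -0.01, between the lower quartile of -0.03 and the median of its class, and Atp1b1 (2580 bases) at -0.13 beside a class median of -0.09. A correction that removes the length trend of each library ended the call of Atp2a2, at -0.65 (SE 0.161, adjusted p = 0.120), and brought Atp2a3 to -0.06, Atp2b1 to -0.45 and Fxyd3 to 0.99. With the shortest transcript of each gene as its length, an alternative chosen after seeing the data, Atp2a2 was at -0.66 (adjusted p = 0.110) and Fxyd3 at 0.73.

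**Figure D4:**
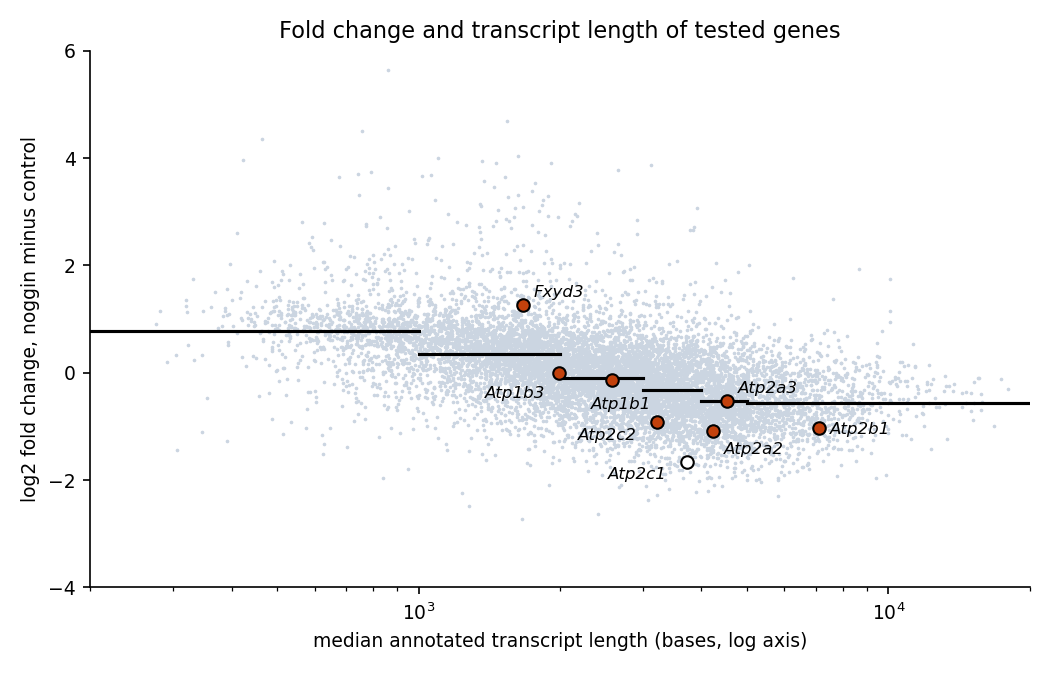
Log2 fold change, noggin minus control, against the median annotated transcript length in bases (log axis) for tested genes (grey points), with black lines at the median of each length class, the 7 tested members in orange and Atp2c1 open. Of 10542 genes, 91 lie outside the axes. Class medians step from 0.78 for the shortest to -0.56 for the longest class, Fxyd3 lies above its class median and Atp2a2 and Atp2c1 below theirs.

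The other genes of sodium and calcium transport were taken from 6 lists written from general knowledge. In the list of sodium pump subunits and FXYD regulators, 4 of 14 genes were tested, 3 of them members. Of these, 0 were called and 2 had an unadjusted p under 0.05, as had 26.7% of all tested genes. The other tested gene was Fxyd6, an FXYD protein known from brain, at 12.8, 5.93 and 5.87 FPKM in controls, and at 25.4, 15.5 and 11.2 FPKM with noggin (log2 fold change 1.01, limma adjusted p = 0.165). In the list of calcium pumps and regulators, 8 of 15 were tested, 2 were lower (Atp2a2 and Atp2c1), 0 were higher and 6 did not pass. The shares of all tested genes called were 0.695% lower and 1.75% higher. The median of this list was -0.72, and 4 of the 8 are members. Without the members the median of the other 4 was 0.50, with 3 log2 fold changes positive and 1 negative. Bsg (basigin), a membrane partner of plasma membrane calcium pumps and monocarboxylate transporters, had 933, 874 and 877 FPKM in controls against 1986, 1329 and 1298 FPKM with noggin (0.75 on the log2 scale, limma adjusted p = 0.122), and its sign turned with quantile normalization (-0.07). Mrln, listed under its older symbol 2310015B20Rik and known as a SERCA inhibitor of skeletal muscle, was at most 0.593 FPKM in controls against 1.29 to 3.56 FPKM in noggin libraries (adjusted p = 0.106). Mrln reached the filter only through the noggin libraries, where it was higher.

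Channels and sensors of calcium release and entry had 0 of 14 tested genes called, 6 at an unadjusted p under 0.05, and a median of -0.10. Of all tested genes, 26.7% had an unadjusted p under 0.05. Stim1, the sensor of calcium in the endoplasmic reticulum, was at 16.8, 16.5 and 21.3 FPKM in controls against 5.49, 11.6 and 7.35 FPKM in noggin libraries. These did not overlap, and the log2 fold change of -1.12 (SE 0.310) did not pass (adjusted p = 0.0952). Orai2, a channel that STIM proteins open, was at -1.05 (adjusted p = 0.104). Its level was 1.5 to 2.67 FPKM in controls against 0.121 to 0.716 FPKM in noggin libraries. Orai2 thus reached the filter only through the controls, where it was higher. Smdt1, listed as 1500032L24Rik and a subunit of the mitochondrial calcium uniporter, was at 1.13 (adjusted p = 0.111).

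Calcium-binding proteins of the endoplasmic reticulum and secretory pathway had 1 of 11 tested genes called higher, 0 lower, and a median of 0.05. Over all tested genes 1.75% were called higher and 0.695% lower. The called gene of this list was Rcn3, a reticulocalbin. It rose from 0.994, 0.443 and 0.302 FPKM to 14.1, 4.53 and 15.1 FPKM (log2 fold change 2.83, SE 0.473, adjusted p = 0.0358). Every control was under 1 FPKM, so Rcn3 reached the filter only through the noggin libraries, and its call is not independent of the filter. Its call was lost without control replicate 1, 2 or 3 (3.01, 2.77 and 2.70), without noggin replicate 1 (2.60), with smaller pseudocounts, with no filter and with the length correction (2.45, adjusted p = 0.0729). Over its alternatives the adjusted p ranged from 0.0140 to 0.214. Sdf4, a calcium-binding protein of the Golgi lumen, was at 26.6, 28.8 and 30.6 FPKM in controls against 48.4, 52.5 and 48.4 FPKM in noggin libraries (adjusted p = 0.0663). Pdia6, a disulfide isomerase, was at 0.77 on the log2 scale (adjusted p = 0.0763).

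Other P-type ATPases had 0 of 19 tested genes called and 11 at an unadjusted p under 0.05. Log2 fold changes were negative for 16 and positive for 3, at a median of -0.80 beside -0.03 over all tested genes, and the groups did not overlap for 11 of the 19 (10 lower), beside 38.3% of all tested genes (18.0% lower). The share of all tested genes at an unadjusted p under 0.05 was 26.7%. Atp8b1, a phospholipid flippase, was at 20.2, 19.7 and 19.7 FPKM in controls against 7.37, 11.4 and 5.21 FPKM with noggin (-1.27 on the log2 scale, adjusted p = 0.0743). Atp8a2, another flippase, was at -1.17 (adjusted p = 0.0763) and Atp13a4, of the P5 type, at -1.73 (adjusted p = 0.0647). Sodium-coupled ion transporters had 0 of 11 called, 4 at an unadjusted p under 0.05, 10 negative log2 fold changes and a median of -0.90. Most tested genes of both lists have a median transcript length over 3000 bases. Class medians of the log2 fold change were -0.33 for 3000 to 4000 bases, -0.52 for 4000 to 5000 bases and -0.56 for 5000 bases or more. The part of length in the medians of these lists was not tested. Slc12a2, the basolateral sodium, potassium and chloride cotransporter, was at 52.9, 62.3 and 62.3 FPKM in controls against 17.2, 24.0 and 44.1 FPKM in noggin libraries (adjusted p = 0.101). Slc9a4, a basolateral sodium and proton exchanger of parietal cells, was at -0.90 (adjusted p = 0.135), and Slc4a4, a sodium bicarbonate cotransporter, at -1.15 (adjusted p = 0.0817). Slc4a4, at 1.37 to 2.12 FPKM in controls and at most 0.562 FPKM in noggin libraries, reached the filter only through the controls.

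Genes with the profile most like each member were found by the root mean square difference between log2(FPKM + 1) profiles over the 6 libraries, each centred on its own mean. The nearest to Atp2a2 were Ivd, a leucine catabolism enzyme, at 0.0664, and Sdha, a subunit of succinate dehydrogenase, at 0.0666 on the log2 scale. Mean FPKM went from 138.3 to 69.0 for Ivd and from 362.3 to 186.1 for Sdha. The nearest to Fxyd3 were Txn1 (thioredoxin) at 0.0429 and Ost4, an oligosaccharyltransferase subunit, at 0.0480. Cdc14b was nearest to Atp2b1 at 0.0326, Sestd1 to Atp2a3 at 0.0692, Selenbp1 to Atp1b1 at 0.0543 and Fbxw2 to Atp1b3 at 0.0422. The nearest to Atp2c2, Sec14l4, was farther away at 0.151. All of these values are descriptions over 6 libraries in 2 groups.

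**Figure D5:**
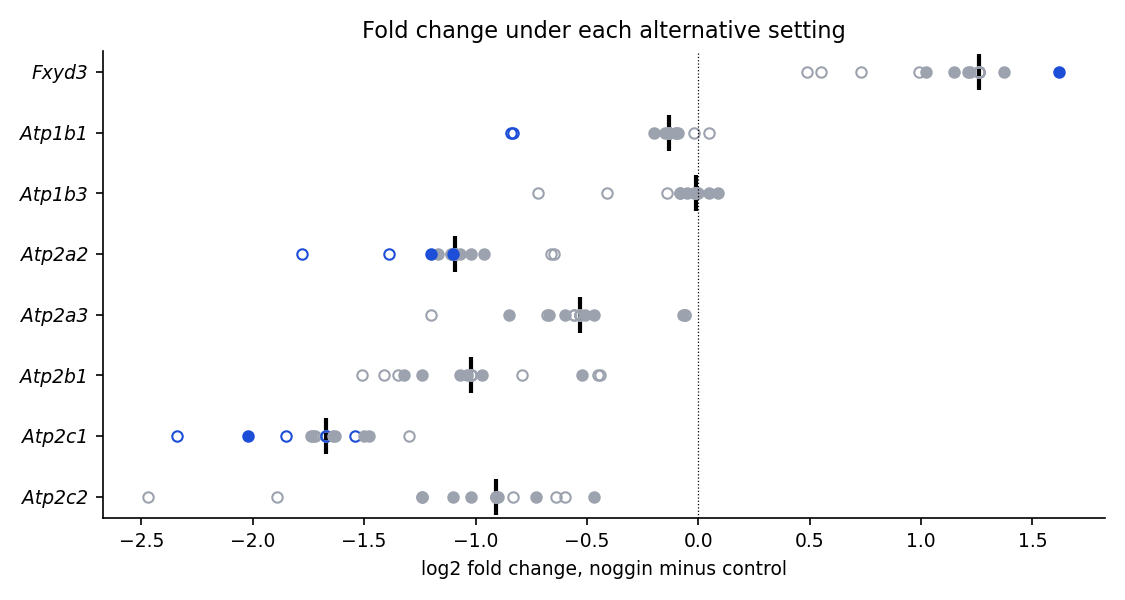
Log2 fold change of the 7 tested members and Atp2c1 as reported (black bars) and under each alternative (circles), filled where 1 library was left out and open for other settings, in blue where the adjusted p was under 0.05. Atp2a2 stays between -1.78 and -0.65 and Fxyd3 between 0.49 and 1.62, and values for Atp1b1 and Atp1b3 fall on both sides of 0.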

How the data were processed

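The authors deposited FPKM values, 1 column per library. Per the submitters' processing notes the build was mm10, with bcl2fastq and FastQC 0.10.0; the aligner is not given in the sources used here, nor are quantifier and annotation. Per the labels' protocols, libraries were made with the low-input SMART-Seq V3 kit and sequenced single-end; no source states strand, so reads of overlapping or antisense genes may be mixed. Depth is unknown. Columns were matched to samples by the labels' library codes.

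Values were transformed to log2(FPKM + 1). The 10644 genes that reached 1 FPKM in 3 or more libraries were tested with limma 3.58.1 in R 4.3.3 (mean-variance trend, two-sided, group as the only term), Benjamini-Hochberg adjusted over all; adjusted p-values of genes are from this test. The fit was tested on simulated data with known changes. These data were drawn independently for each gene, with no length trend and no outlying library, so the simulation does not cover either. Ratios were compared by exact permutation. Coordinates and lengths (median over transcripts of the basic set) are from GENCODE M21 (GRCm38, the build of mm10): 20911 genes matched by symbol, 1915 by an older symbol, 458 did not. The length correction subtracts a loess trend (span 0.5) on log2 length from the deviation of each library from the mean of all 6.

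Members, lists and alternatives were chosen with earlier results of these data known. Named genes are all 8 members, Atp2c1, and from each list up to 3 further genes, called ones first by size and then by unadjusted p; for profiles, the nearest 2 genes per member were found and some are printed. No pair of libraries was a copy: each differed in at least 16505 genes. Same-numbered libraries did not deviate together, so replicate numbers were not treated as pairs. Some listed genes and pairs are not reported here, and list counts leave them out.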

Additional observations from a re-analysis of the deposited data

How the results depend on the processing

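Of the 7 tested members, 5 kept the sign of their log2 fold change in all alternatives run (16 each, 15 for Atp2c2, which a filter of 5 FPKM removes), and Atp1b1 and Atp1b3 did not. Atp1b1 was at 0.05 with the shortest transcript in the length correction, and Atp1b3 at 0.05 without control replicate 2 and 0.09 without noggin replicate 1 (-0.08 to 0.09 over single omissions). Bsg turned to -0.07 with quantile normalization. The number of members called lower was 1 as reported, 2 after rescaling and with quantile normalization, and 0 with a pseudocount of 0.1 or 0.01, no filter on low values, either length correction or no mean-variance trend; leaving out 1 library gave 0 to 1 lower and 0 to 1 higher. Over all tested genes, 186 were higher and 74 lower as reported, 85 and 26 with a pseudocount of 0.1, 72 and 21 with 0.01, 8 and 4 with no filter, 52 and 21 with the length correction, 77 and 27 with the shortest transcript, 66 and 17 with no trend, 137 and 963 after rescaling and 179 and 174 with quantile normalization, and leaving out 1 library gave 4 to 1187 higher and 5 to 825 lower. These were 4 and 5, 39 and 7, and 7 and 5 on omitting control replicate 1, 2 or 3, and 44 and 21, 1187 and 825, and 311 and 280 on omitting noggin replicate 1, 2 or 3. In the 6 lists together, 1 gene was higher and 2 lower as reported. Higher were 0 with either pseudocount, no filter, a filter of 5 FPKM or either length correction, and 0 to 6 without 1 library. Lower were 0 with either pseudocount, no filter, the length correction or no trend, 1 with the shortest transcript, 22 after rescaling, 6 with quantile normalization and 0 to 16 without 1 library. With the replicate number as a block, 0 members were called (Atp2a2 at -1.09, adjusted p = 0.0667), 128 genes were higher and 32 lower over all, and 1 listed gene was lower. Deviations from the group means correlated at 0.105, -0.141 and 0.005 for replicates 1, 2 and 3, so the numbers are not known to pair libraries. The log2 ratio of Atp1b1 to Atp1b3 differed by -0.43 with quantile normalization and that of Atp2b1 to Atp2b4 by -3.55 with a pseudocount of 0.01. Fewer libraries or more genes tested enter some of these settings by construction, and for the others the cause was not tested. Depth is unknown, so a value near 0 gives no detection limit.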

Other observations

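Several pump and transport genes under the filter on low values, named after their values were seen, resembled Atp2b4 in being measured mainly in noggin replicate 3. Atp2a1, the SERCA pump of fast skeletal muscle, was at 2.22 FPKM there and at most 0.153 FPKM in the other 5 libraries. Slc8a3, a sodium and calcium exchanger, was at 0.792 FPKM there and at most 0.017 FPKM elsewhere. Tmem30c, of the family of flippase partners, was at 1.12 FPKM and at most 0.0522 FPKM elsewhere. Fxyd5, the FXYD protein also called dysadherin, showed another pattern, at 6.94 and 5.01 FPKM in noggin replicates 1 and 2, listed at 0 in replicate 3, and at 0.103, 0.404 and 0.204 FPKM in controls. None of these genes was tested.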
